A study of Gallus gallus with 4 samples.

Results

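The transcripts described here were bright on the arrays and lower after VEGF-A in the chick chorio-allantoic membrane (CAM). They are the chicken probe sets whose mean signal over the 4 arrays was at or above the 80th percentile of all chicken probe sets, a signal of 122, and whose ratio of VEGF-A CAM to control pool was under 0.5 in at least 2 of the 3 VEGF-A CAMs. There were 172 such probe sets among 7539 bright ones, of 37693 chicken probe sets in all, and 113 of them carry 1 gene symbol, for 109 genes. The same arrays and the same ratios chose the members, so their levels are a description and carry no test.

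The CAM surrounds the embryo beneath the eggshell and serves its gas exchange and its uptake of shell calcium. It was taken from embryos at developmental day 14, and total RNA was labelled by a small sample protocol and hybridised to an Affymetrix chicken array. In the treated group, 3 µg of recombinant human VEGF-A dried on a Thermanox disc lay on each CAM from day 13 for 24 h, and 3 single CAMs gave 1 array each. The control was 1 array of pooled RNA from 3 normal CAMs, so the spread between control CAMs was not measured. The sources differ on whether the control CAMs carried a disc, which was not settled here. Strain, genotype and embryo sex are not given in the sources used here, and treated tissue was excised where new capillaries could be seen. The replicates of the treated group are separate CAMs.

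VEGF-A is the ligand of receptor tyrosine kinases on endothelial cells and drives the sprouting and division of vessel cells. The CAM consists of a chorionic epithelium that transports calcium and carries the gas exchange capillaries, a stroma of fibroblasts and vessels, and an allantoic epithelium that transports ions. A signal is a share of the labelled RNA of the whole tissue, so that fewer cells of a type and less RNA per cell cannot be told apart. Signals of different probe sets depend on their probes, and are not compared as levels of different genes.

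The members made up 2.28% of the bright probe sets. The mirror rule, a ratio over 2 in at least 2 VEGF-A CAMs, took 274 bright probe sets, or 3.63%. Over all chicken probe sets 18.1% were lower and 12.1% higher by the same ratios. The median signal of the members was 383 on the control array and 162, 170 and 168 in VEGF CAM 1, VEGF CAM 2 and VEGF CAM 3, while that of all bright probe sets was 344 on the control array and 364, 358 and 361 in the CAMs. The members' median log2 ratio was thus -1.26, -1.27 and -1.21 in CAM 1, CAM 2 and CAM 3, against 0.03, 0.02 and 0.03 for all bright probe sets. Every VEGF-A CAM was below the control pool for 149 members, and 23 members had 1 CAM above it.

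The count depended on the scaling, on how brightness was taken and on each CAM. Quantile normalization kept 170 of the 172 members and gave 189 lower and 253 higher. The arrays as deposited share a trimmed mean, which left the median log2 ratio of all chicken probe sets at -0.16. With the array medians made equal this median was 0.10, while that of the bright probe sets went from 0.03 as deposited to 0.28. Under that scaling 80 of the 172 remained and 586 bright probe sets were higher. Of the probe sets past either ratio 88% were then higher, against 61.4% as deposited. With brightness taken in the control pool alone, 274 probe sets were lower (3.63%) and 153 higher, so that lower calls outnumbered higher ones, and with brightness taken in the VEGF-A CAMs alone 121 were lower and 305 higher. Without CAM 1 the rule, now asked of both remaining CAMs, took 79 probe sets. It took 82 without CAM 2 and 84 without CAM 3. limma, fitted with Benjamini-Hochberg adjustment over the 22616 chicken probe sets past a filter on low signal, called 0 lower and 0 higher, with 546 lower (2.41%) and 872 higher (3.86%) at an unadjusted p under 0.05.

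**Figure D1:**
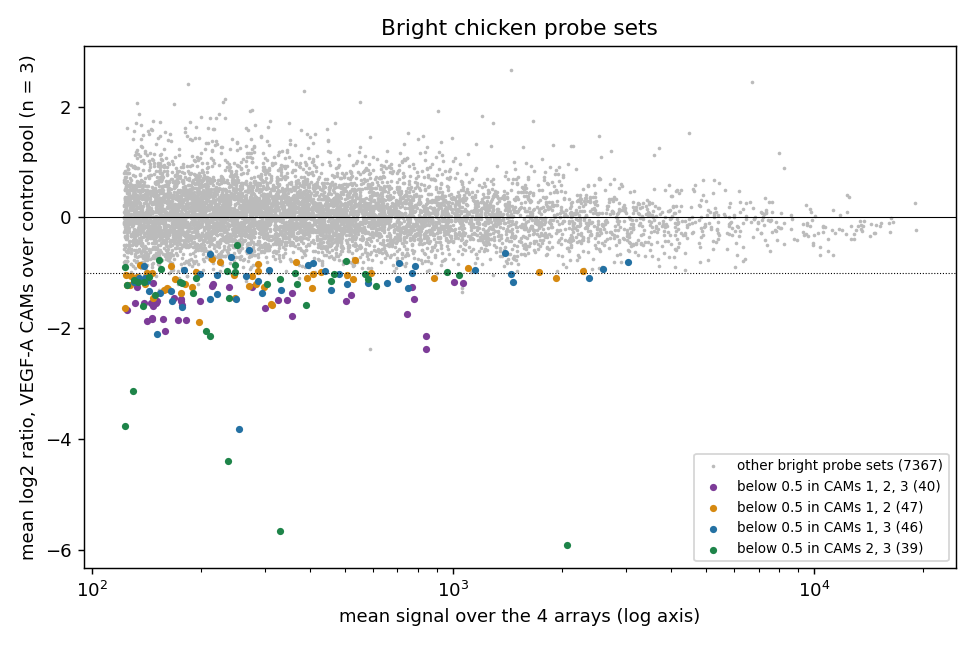
Mean log2 ratio of the 3 VEGF-A CAMs to the control pool (vertical axis) against the mean signal over the 4 arrays (horizontal axis, log scale) for the 7539 bright chicken probe sets. The 172 members are coloured by the CAMs in which they were under 0.5, and the other bright probe sets are grey. The members lie below 0 across most of the range of signals, and a few reach mean log2 ratios below -2.

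In 40 of the 172 members all 3 CAMs were under 0.5 of the control, or 0.531% of bright probe sets, and 81 bright probe sets were over 2 in all 3. Their median signal was 377 on the control array and 134, 141 and 132 in the CAMs, a median mean log2 ratio of -1.51. The gene with the lowest mean ratio among these was OSTN, osteocrin, a secreted peptide that binds the clearance receptor of natriuretic peptides. Its signal was 2122 on the control array and 307, 439 and 494 in CAM 1, CAM 2 and CAM 3, a mean log2 ratio of -2.39 ± 0.36 (SD, n = 3 CAMs against the 1 pool). All 3 CAMs lay far below the pool, with CAM 1 the lowest. CCNH, cyclin H of the CDK-activating kinase, came next with 1966 on the control array and 322, 453 and 613 in the CAMs, or -2.14 ± 0.46. Here too CAM 1 was the lowest of the 3.

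Genes of RNA processing, signalling and protein turnover followed. SRSF5, a splicing factor of the SR family, read 378 in the pool and 90.6, 106 and 118 in the CAMs (mean log2 -1.86 ± 0.19). A second SRSF5 probe set was also a member, with 275 in the pool and 142, 101 and 79.8 in the CAMs. Both SRSF5 probe sets were under 0.5 in at least 2 CAMs, though the order of the CAMs differed between them, CAM 1 being the lowest in one and the highest in the other. GPSM1, a modulator of G protein signalling, read 340.1 in the pool and 110.0, 95.2 and 82.7 in the CAMs. ZNRF2, a membrane-associated ubiquitin ligase, read 312 in the pool and 75.6, 69.4 and 129 in the CAMs. MDM2, the ubiquitin ligase that targets p53, read 668 in the pool and 217, 219 and 283 in the CAMs, a mean log2 ratio of -1.49 ± 0.22. Apart from CAM 1 on the second SRSF5 probe set, these CAM values were under 0.5 of the pool, and the CAM furthest from the pool differed from gene to gene.

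TRAPPC2, a subunit of a tethering complex of the secretory pathway, spread most among these genes, with 742 in the pool and 330, 225 and 134 in the CAMs (mean log2 -1.79 ± 0.65). C1D, a partner of the RNA exosome, read 349 in the pool and 84.5, 144 and 130 in the CAMs. GJB6, the gap junction protein connexin 30, read 970 in the pool and 416, 382 and 249 in the CAMs, or -1.51 ± 0.40. TUBD1, delta tubulin of centrioles, read 969 in the pool and 285, 454 and 374 in the CAMs. On the member probe sets of these 4 genes the highest CAM was still under 0.5 of the pool.

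Small proteins of the mitochondrion and the ribosome were also among the 40. COX17, the copper chaperone of cytochrome c oxidase, had 1833 in the pool and 714, 823 and 880 in the CAMs, and its SD of 0.15 around a mean log2 ratio of -1.19 was small. C12orf65, a mitochondrial protein of the translation release factor family, read 1481 in the pool and 410, 709 and 519 in the CAMs. RPL31 of the large ribosomal subunit read 334 in the pool and 94.0, 123 and 152 in the CAMs, and RPS12 of the small subunit read 321 in the pool and 123, 126 and 103. For COX17 and RPS12 the 3 CAMs lay close together, while for C12orf65 and RPL31 the highest CAM was over 1.5 times the lowest.

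**Figure D2:**
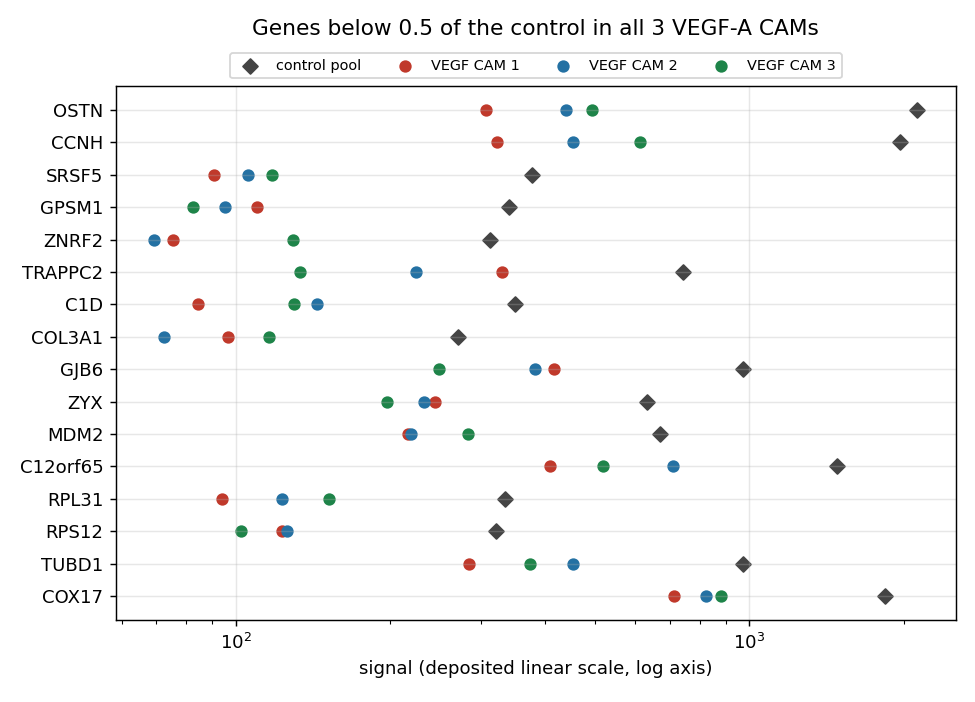
Signal on a log axis for the control pool and each of the 3 VEGF-A CAMs, for genes that the naming rule took from those under 0.5 of the control in all 3 CAMs. Every CAM point lies left of its control point; OSTN and CCNH have the widest gaps, with mean log2 ratios of -2.39 and -2.14.

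Among the members of highest control signal most were under 0.5 in 2 CAMs only. VMP1, a membrane protein needed to form autophagosomes, read 3939 in the pool and 1767, 2961 and 1700 in the CAMs. PDCD6, a calcium-binding adaptor, read 3488 in the pool and 1325, 1598 and 2705. RPL29, of the large ribosomal subunit, read 3167 in the pool and 1158, 1503 and 1863. CAM 2 was the highest for VMP1 and CAM 3 for PDCD6 and RPL29, each still below the pool. LY6CLEL, of the Ly6 family of membrane-anchored proteins, read 2657 in the pool and 1144, 996 and 2092, and PERPB, listed for a protein of the desmosomal PERP family, read 2490 in the pool and 916, 1402 and 1050. ASTL, an astacin-like metalloproteinase, read 3870 in the pool and 1193, 5460 and 1656, so that CAM 2 was above the pool. HINTW, described with chromosome W, had CAM 1 above it. Further bright probe sets of PDCD6 gave mean log2 ratios of -0.73 and -0.55 where the member gave -0.96, and those of RPL29 -0.62 and -0.34 where the member gave -1.10.

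The 132 members under 0.5 in 2 CAMs divide by which CAM was left out. CAM 1 and CAM 2 were low in 47, and their CAM 3 ratios ran from 0.502 to 1.62 with a median of 0.630. CAM 1 and CAM 3 were low in 46, with CAM 2 ratios of 0.501 to 3.00 and a median of 0.752. CAM 2 and CAM 3 were low in 39, with CAM 1 ratios of 0.515 to 2.47 and a median of 0.692. The remaining CAM was itself under 0.6 in 19, 13 and 13 of these members, and above the pool in 3, 13 and 7. Members in which 1 CAM stood above the control thus most often had CAM 2 as that CAM.

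The clearest CAM 2 cases were chosen after their values were seen. DYNC1H1, the heavy chain of cytoplasmic dynein, read 605 in the pool and 96.0, 1815 and 107 in the CAMs. SPP1, the secreted matrix protein osteopontin, read 209 in the pool and 44.8, 492 and 103. TNFSF15, a cytokine of the TNF family, read 288 in the pool and 128, 574 and 94.3. For these 3 genes CAM 2 was above the pool while CAM 1 and CAM 3 were far below it. DIO2, the deiodinase that activates thyroid hormone, read 507 in the pool and 179, 772 and 171 in the CAMs. MMP9, a gelatinase of heterophils and macrophages, read 320 in the pool and 139, 371 and 142. GCLM, the modifier subunit of the glutathione-producing ligase, read 1789 in the pool and 861, 2091 and 824. Another bright probe set of GCLM gave a mean log2 ratio of -0.46 where the member gave -0.65, and another of DYNC1H1 gave 0.60 where the member gave -1.19. In DIO2, MMP9 and GCLM too the CAMs lay on both sides of the pool, and without CAM 1 the mean log2 ratio of SPP1 was 0.11. A member with no gene symbol read 321 in the pool, 686 in CAM 2, and 7.20 and 2.33 in CAM 1 and CAM 3.

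**Figure D3:**
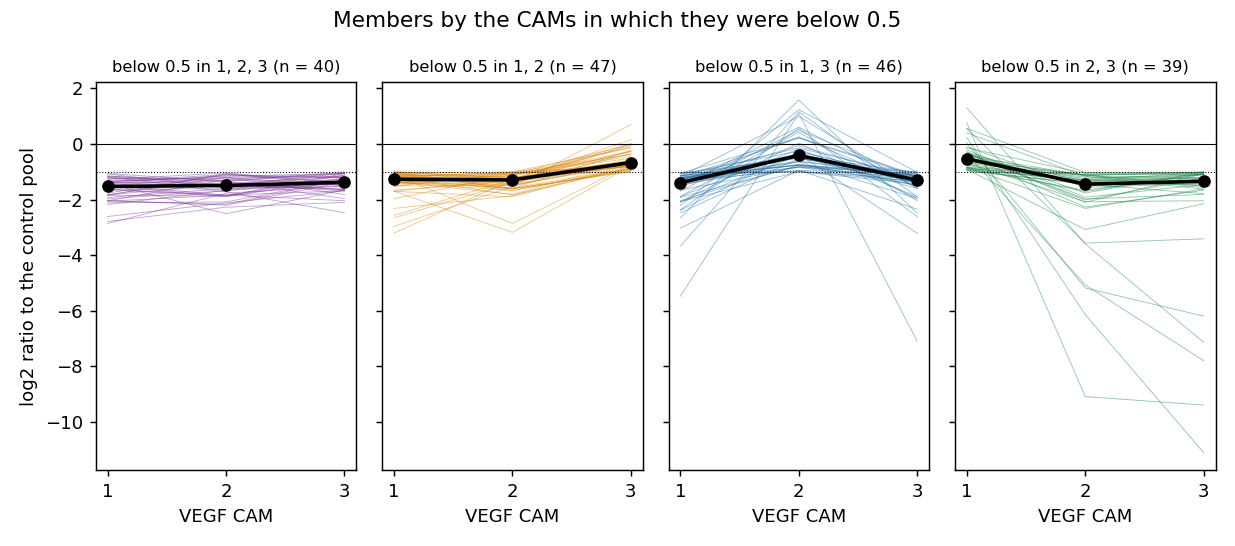
Log2 ratio to the control pool in each VEGF-A CAM for the 172 members, grouped by which CAMs were under 0.5 (thin lines join the values of 1 probe set, black points are medians, the dotted line is a ratio of 0.5, and the CAMs have no order). The group with CAM 1 and CAM 3 low holds 13 members with CAM 2 above the control, against 3 and 7 members with the remaining CAM above it in the other groups.

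Members by role show which functions the rule took, and the genes of this paragraph and the next that are not in a fixed list were chosen after their values were seen. Among mitochondrial and metabolic genes, NDUFA2 of respiratory complex I read 305 in the pool and 144, 127 and 200 in the CAMs. MRPL47 of the mitochondrial ribosome read 382 in the pool and 68.7, 266 and 172, a wide spread. MTX2, metaxin of the outer membrane, read 1788 in the pool and 767, 1146 and 889, and SFXN1, a mitochondrial serine carrier, read 1693 in the pool and 845, 799 and 1059. Among nuclear genes, HNRNPD, a binder of AU-rich mRNA, read 284 in the pool and 246, 75.2 and 103. MED10 of the Mediator complex read 821 in the pool and 395, 328 and 481. SFPQ, a splicing factor of paraspeckles, read 964 in the pool and 563, 377 and 416. Among the CAMs, CAM 1 was the highest for HNRNPD and SFPQ and the lowest for MRPL47 and MTX2, CAM 2 was the lowest for NDUFA2, SFXN1 and MED10, and neither role kept to 1 order. Another bright probe set of HNRNPD lay near the pool, with a mean log2 ratio of -0.21 where the member gave -1.19.

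TRPV6, the epithelial calcium channel, read 412 in the pool and 157, 206 and 376, so that CAM 3 was near the pool. MT4, a metallothionein, read 292 in the pool and 49.1, 120 and 241. SELENOW, a small selenoprotein, read 295 in the pool and 133, 138 and 294, with CAM 3 level with the pool. ALDH1A3, a retinoic acid-producing dehydrogenase, read 1285 in the pool and 312, 759 and 634. INHBA, the activin beta A subunit, read 266 in the pool and 62.6, 200.2 and 87.5. CAM 1 was the lowest CAM for all 5 of these genes. FAS, the death receptor, read 237 in the pool and 129, 95.4 and 93.4. CCNG2, a cyclin of growth arrest, read 1357 in the pool and 579, 481 and 655. SAT1, which acetylates polyamines for breakdown, read 1207 in the pool and 492, 851 and 522, and E2F6, a repressor of the E2F family, read 377 in the pool and 148, 175 and 165. FAS and CCNG2 were lower in CAM 2 than in CAM 1, whereas SAT1 and E2F6 were lower in CAM 1 than in CAM 2. Other bright probe sets of 4 of these genes lay nearer the pool. SELENOW read 2737 in the pool and 2768, 2606 and 3321 on its brightest probe set, a mean log2 ratio of 0.07, and the others gave -0.46 for CCNG2, -0.70 and -0.29 for SAT1 and -0.17 for E2F6.

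Symbols beginning with SLC (solute carriers) and with RPL (large ribosomal subunit) each gave 3 member genes, of 98 and 39 bright genes (3.06% and 7.69%), against 2.16% of all 5050 bright genes with 1 symbol. Families were kept only where 3 or more of their genes were members. That choice favours high shares, so the family shares carry no test. SLC6A15, a transporter of neutral amino acids, read 754 in the pool and 145, 622 and 312 in the CAMs. SLC13A3, a dicarboxylate transporter, read 215 in the pool and 116, 67.8 and 101. SLC35C2, of the nucleotide sugar transporter family, read 319 in the pool and 191, 132 and 133. SLC6A15 was lowest in CAM 1, while the other 2 carriers were highest there. RPL22L1, a paralog of a large subunit protein, read 651 in the pool and 271, 278 and 433, and like RPL29 and RPL31 had its highest CAM value in CAM 3. A further 3 members carry only locus names, of 62 bright genes with such names (4.84%, against the same 2.16%). LOC770574 read 280 in the pool and 21.9, 626 and 75.1, with CAM 2 above the pool, while LOC100858647 read 439 in the pool and 234, 52.0 and 99.0, with every CAM below it. The last of them, LOC430910, is described with chromosome W.

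Other probe sets of the same genes often did not share the low ratio. Of the 109 genes, 30 had a single probe set, and in 27 the probe set of highest mean signal was no member. For these 27 genes the median control signal of that brightest probe set was 1740, and of their 28 member probe sets 371. COL3A1, the fibrillar collagen of type III, was a member through a probe set that read 271 in the pool and 96.6, 72.5 and 116 in the CAMs. Its brightest probe set read 9806 in the pool and 10158, 15856 and 13257, and another read 357 in the pool and 1107, 2650 and 689. The COL3A1 probe sets therefore stood on opposite sides of the pool in all 3 CAMs. ZYX, zyxin of focal adhesions, read 632 in the pool and 244, 233 and 197 on its member probe set, but 2112 in the pool and 2397, 2683 and 2722 on its brightest. RFC2, a subunit of the clamp loader of DNA replication, read 315 in the pool and 74.7, 158 and 116 on the member, but 214 in the pool and 280, 250 and 282 on the other (RFC2 was chosen after its values were seen). ZYX and RFC2 thus also had probe sets on either side of the pool. The member identifiers of COL3A1 and RFC2 end in A1_at, and those of their brightest probe sets in S1_at. Whether the member probe sets read the same transcripts as the brightest ones was not tested.

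In other genes the second probe set lay nearer the pool or shared part of the difference. RPS12 read 10567 in the pool and 6312, 8955 and 9282 on its brightest probe set, a mean log2 ratio of -0.39 where the member gave -1.46. C1D read 1158 in the pool and 688, 716 and 920 on the other probe set, or -0.59 against -1.58. TRAPPC2 gave -0.59 against -1.79 and RAB8A, a GTPase of exocytosis, -0.24 against -1.19. For GJB6 the other bright probe set was the dimmer of the pair and gave -0.51 against -1.51, with CAM ratios of 0.59, 0.80 and 0.73. PDCD10, a scaffold of the cerebral cavernous malformation complex chosen after its values were seen, was low on both, with -0.85 on the brightest and -0.77 on the member. Of 35 genes with more than 1 bright probe set, 33 had further bright probe sets that were no members, 46 in all. These 46 were picked for not meeting the 0.5 rule, so their nearness to the pool carries no test. Their median mean log2 ratio was -0.28 in a range of -0.85 to 1.83, 31 lay below 0, 33 lay within 0.5 of 0 on the log2 scale, and 3 met the mirror rule. FAM105A, SRSF5 and CASK had at least 2 member probe sets each. The brightest CASK probe set was no member, and read 4541 in the pool and 3609, 5126 and 5035 in the CAMs. Its mean log2 ratio was -0.0024, where the CASK members gave -1.20 and -1.30. CPNE7, a calcium-dependent membrane-binding protein chosen after its values were seen, read 654 in the pool and 863, 292 and 212 on its member probe set, with CAM 1 above the pool. As the mean over all probe sets of a gene, dim ones included, COL3A1, CPNE7, DIO2, RAB8A and TNFSF15 turned to log2 ratios of 0.60, 1.04, 0.21, 0.0034 and 0.15. For CPNE7 and DIO2 the only other probe set had a mean signal of 5.24 and 2.85, below the low signal filter of 11.1. For RAB8A the only probe set with a mean log2 ratio above 0, at 1.93, had a mean signal of 3.03, also below that filter.

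**Figure D4:**
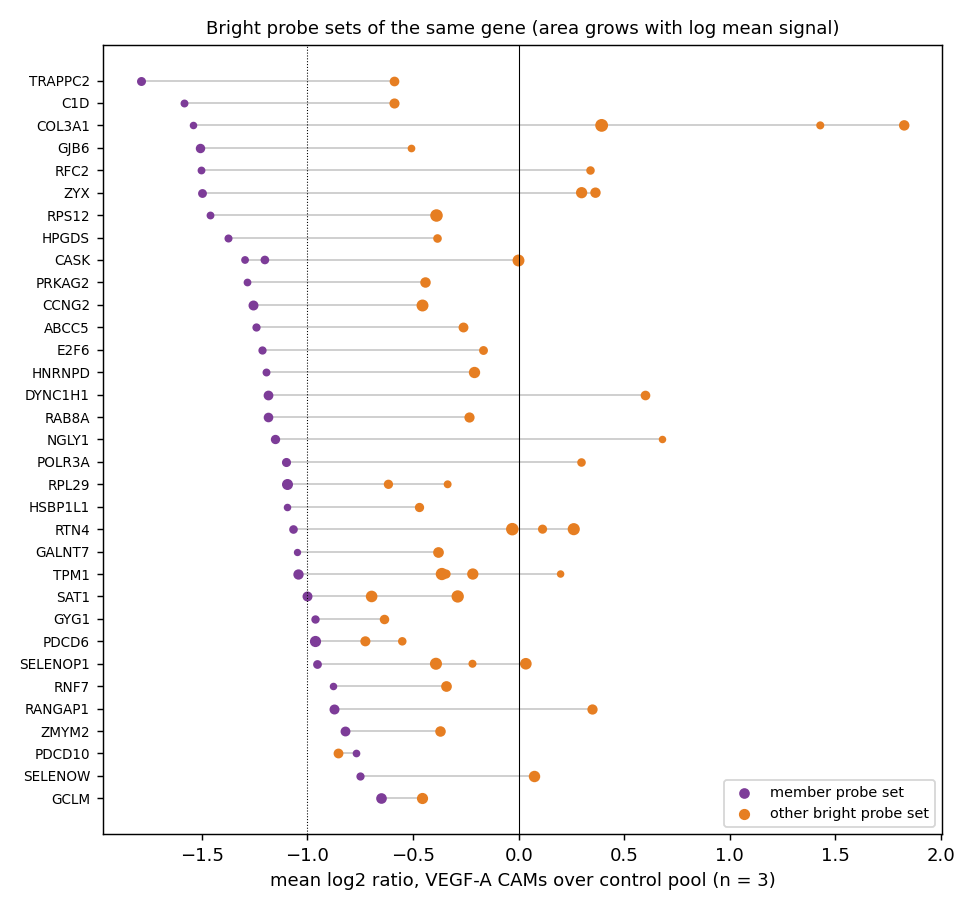
Mean log2 ratio of each bright probe set, for the 33 genes with both a member probe set and another bright probe set (horizontal axis, mean over the 3 VEGF-A CAMs, where 0 is the control pool and larger points have a higher signal). Member probe sets lie below 0, while those that are no members range from -0.85 to 1.83.

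In 6 members the signals of CAM 2 and CAM 3 were each more than 10-fold below those of the control array and of CAM 1. HINTW, the W-linked copy of the nucleotide-binding protein gene HINT1, read 3059 in the pool and 5176 in CAM 1, but 5.61 in CAM 2 and 4.54 in CAM 3. HNRNPKL read 522 and 409 in the pool and CAM 1, but 15.6 and 2.34 in CAM 2 and CAM 3, and UBE2R2L read 146 and 360, but 12.1 and 1.04. LOC430910 read 320 and 470, but 27.0 and 30.0. All 4 genes lie on chromosome W in the RefSeq annotation, the sex chromosome that in birds only females carry. A pair of members with no gene symbol and no position had the same pattern, one with 605 and 712 but 8.59 and 0.274, the other with 237 and 245 but 6.53 and 3.23. These 6 were all of the bright probe sets in which the pool and CAM 1 were each more than 10 times CAM 2 and CAM 3.

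Of 39 W probe sets 22 had a control signal of at least 20, and in 15 of these CAM 2 and CAM 3 were below both the pool and CAM 1. The 15 include the 4 members, and among the 18 that were no members the count was 11, all of them below the brightness threshold. The 4 other bright W probe sets, of NEDD4L and MBD2, did not show the split, and 0 of them had both CAMs below the pool and CAM 1. Over all 8 bright W probe sets, among them the 4 that the rule chose, the median log2 ratio was 0.31 in CAM 1, -2.26 in CAM 2 and -1.70 in CAM 3. The 274 bright Z probe sets gave medians of -0.27, 0.13 and 0.12, and the 5845 autosomal ones 0.03, 0.01 and 0.02. Members made up 1.46% of the bright probe sets on Z and 1.78% of those on autosomes. The labels give no embryo sex, and its part in these ratios was not tested. Without Z and W there were 164 members of 7257 bright probe sets, or 2.26%. Without CAM 1 the mean log2 ratio of HINTW was -9.24, but HINTW was chosen by these same ratios, so this value carries no test.

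The members on Z were CCNH, TNPO1, ECPAS and SELENOP1, the last 3 chosen after their values were seen. TNPO1, a nuclear import receptor, read 391 in the pool and 136, 184 and 274. ECPAS, a scaffold of the proteasome, read 379 in the pool and 41.0, 155 and 420, so that CAM 3 was above the pool. SELENOP1, the plasma selenium carrier, read 472 in the pool and 179, 350 and 232, and its other bright probe sets gave mean log2 ratios of -0.39, -0.22 and 0.03. CAM 1 was the lowest CAM in all 4 of these genes on Z. In the 4 W members CAM 1 was the highest, which follows from their being under 0.5 in CAM 2 and CAM 3 only. Both groups were chosen by these same ratios, so the contrast carries no test.

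**Figure D5:**
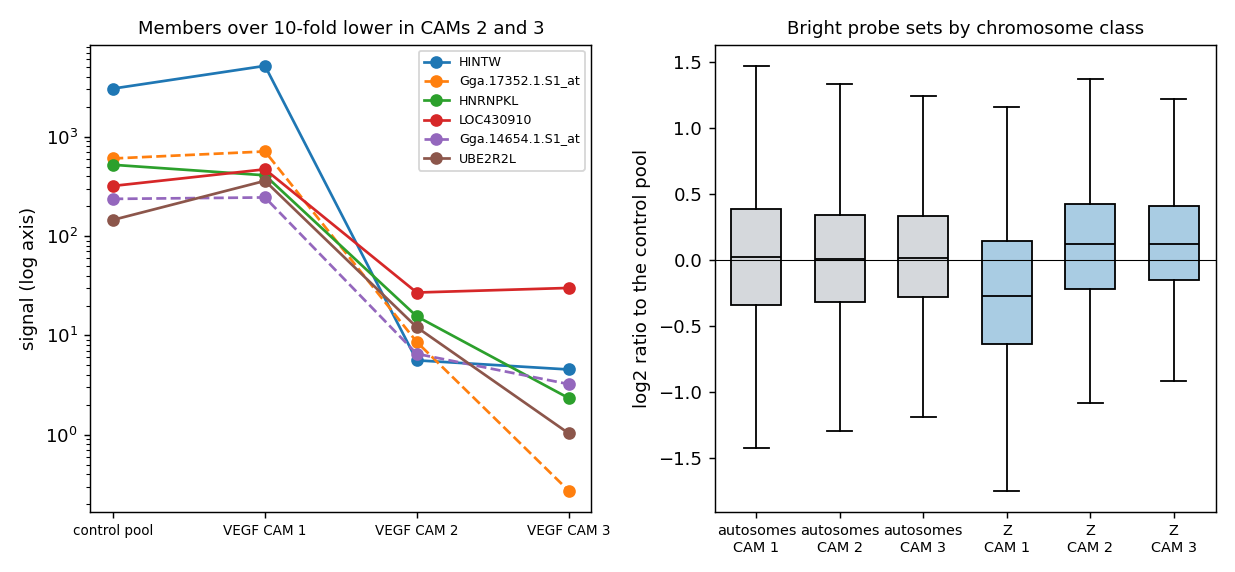
Left, signals of the 6 members over 10-fold lower in VEGF CAM 2 and CAM 3 than in the control pool and CAM 1 (log axis, 1 line per probe set); right, log2 ratios to the pool of bright probe sets on autosomes and on Z in each CAM, as boxes of the quartiles with the median and whiskers to the furthest value within 1.5 box lengths. The autosome medians are 0.03, 0.01 and 0.02, whereas those of Z are -0.27 in CAM 1 and 0.13 and 0.12 in CAM 2 and CAM 3.

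Lists of genes by function and cell type give the setting of the members. A gene counted as lower in a list need not be a member, because the lists also take in dim genes. Complexes II to V held 1 member gene, COX17. The lists of immediate early and stress genes, hypoxia genes, epithelium and red blood cells had lower genes but 0 member genes. Member genes are those with 1 symbol, so a member probe set with 2 keratin symbols, KRT75 and KRT6A, was not counted. It read 1552 in the pool and 343, 488 and 595 in the CAMs, under 0.5 of the pool in all 3. With a gene at its probe set of highest mean signal, 633 of 10505 genes past the filter were lower in at least 2 CAMs (6.03%) and 564 were higher (5.37%), and the median mean log2 ratio was -0.07. Subunits of respiratory complexes II to V gave 3 lower of 36 measured (8.33%) with 1 higher, and a median of -0.19. Complex I gave 1 of 34 and a median of -0.28, mitochondrial ribosomal proteins 2 of 63 and -0.13, and mitochondrial import 0 of 22 and -0.41. Cytosolic ribosomal proteins gave 3 of 64 and a median of -0.28, which was -0.60 in CAM 1 and -0.14 and -0.13 in CAM 2 and CAM 3. Immediate early and stress genes gave 2 of 25 (8%) and a median of -0.11. Complexes II to V and the immediate early and stress genes were the only 2 of the 27 lists with a share of lower genes above 6.03%. That share takes in dim genes, as only 5050 of the 10505 were bright. Lower calls were 2.28% of bright probe sets against 18.1% of all, so 6.03% is a high mark for a mostly bright list. Bright genes were 63 of 64 for cytosolic ribosomal proteins, 28 of 36 for complexes II to V and 16 of 25 for immediate early and stress genes. In none of the lists were most genes under 0.5 in at least 2 CAMs. A mean log2 ratio below 0 was found for 53 of 64 cytosolic ribosomal genes, 25 of 34 of complex I and 24 of 36 of complexes II to V. It was found for 5781 of all 10505 genes, and the list median was below 0 in 14 of the 27 lists. Splicing gave 2 lower and 2 higher of 50 with a median of 0.06, RNA polymerase and Mediator 1 lower of 33 with -0.15, and antioxidant genes 1 lower of 38 with -0.19. Hypoxia genes gave 1 lower of 24, with a median of -0.0049.

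No gene was lower in the lists of the proteasome (2 of 37 higher), ubiquitin enzymes (0 of 33), translation factors (0 of 41), the endoplasmic reticulum (0 of 40), vesicle traffic (1 of 51), histones (1 of 18), the actin cytoskeleton (0 of 33), glycolysis (0 of 18) and reference genes (0 of 14). Their medians ran from -0.08 to 0.16. Members were still found in the vesicle traffic list (RAB8A) and the actin list (TPM1), through probe sets that were not the brightest of the gene. The member probe set of TPM1 read 1675 in the pool and 1040, 734 and 700 in CAM 1, CAM 2 and CAM 3. Of the 109 member genes 18 were in a list and 91 in none.

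Markers of cell types were set beside these counts. Epithelial markers gave 2 lower and 0 higher of 35, with a median of -0.16, and their summed signal was 84260 in the pool and 63702, 85527 and 76364 in the CAMs. Ion transport genes of the CAM epithelia gave 2 lower and 4 higher of 40 and a summed signal of 38365 in the pool and 35536, 42896 and 37218. Neither sum lay below the pool in all 3 CAMs, though a sum of signals is carried mostly by its brightest genes. The mean log2 ratio was below 0 for 23 of the 35 epithelial markers and 19 of the 40 ion transport genes. Fibroblast markers gave 1 lower and 8 higher of 31, with sums of 49781 in the pool and 65561, 86651 and 75636. Smooth muscle gave 0 lower and 0 higher of 16 (7910 in the pool and 8030, 8611 and 10016). Blood endothelial markers gave 0 lower and 15 higher of 21, with 6961 in the pool and 14779, 9526 and 15644, and mitosis genes 0 lower and 25 higher of 35. The fibroblast and endothelial sums were above the pool in every CAM.

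Summed signals of blood cell markers differed between CAMs. Red blood cell genes gave 1 lower and 5 higher of 22 and summed to 38471 in the pool and 36591, 49610 and 44496. Markers of heterophils and macrophages gave 1 lower and 3 higher of 27 and summed to 9336 in the pool and 5056, 12168 and 12614. CAM 1 was below the pool in both sums and CAM 2 and CAM 3 above it. The list medians did not show the same split. For red blood cell genes the median log2 ratio was 0.26, 0.47 and 0.24 in CAM 1, CAM 2 and CAM 3. For heterophils and macrophages it was -0.40, -0.08 and 0.18. The mean log2 ratio was below 0 for 6 of the 22 red blood cell genes and 17 of the 27 others. The 3′/5′ ratios of control transcripts differed too. The 3′/5′ ratio of actin was 24.2 in the pool and 15.5, 19.7 and 22.9 in the CAMs, and that of EF1a 8.74 in the pool and 5.74, 6.65 and 7.38. For GAPDH, measured in 2 ways, it was 67.0 in the pool and 43.2, 58.0 and 66.9, and 61.1 in the pool and 36.6, 46.7 and 57.6. CAM 1 and CAM 2 were below the pool in each ratio, and CAM 3 was level with it in the first GAPDH ratio. The part of these ratios, and of the marker levels, in the members' low values was not tested.

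Just inside the brightness threshold lay 3 members with no gene symbol, with mean signals of 122.9, 123.2 and 123.4. Just outside it lay LGR6, a probe set with no gene symbol and UQCRB, with 122.1, 120.5 and 119.9. By the ratio of the second lowest CAM, TRPV6, SFXN1 and CASK lay just inside at 0.4999, 0.4989 and 0.4978. Just outside lay a pair of probe sets with no gene symbol at 0.5002 and 0.5005, and SH3YL1 at 0.5006.

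Members without a gene symbol made up 57 of the 172 (33.1%), against 17.7% of all bright probe sets and 27.5% of all chicken probe sets. Among bright probe sets of the mirror rule the share was 23.4%. Probe sets whose identifier ends in _s, _a or _x, which mark probes that match more than 1 transcript, made up 22.1% of members. Their share was 35.1% of bright probe sets and 27.3% of all chicken probe sets.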

How the data were processed

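Total RNA of the CAM was measured on 4 Affymetrix chicken arrays. Each probe set has 1 linear intensity in the table the authors deposited, made with GCOS 1.2 per the submitters' processing notes. The 2% trimmed mean of each array is 100, and no further scaling was applied. Detection calls were not used. Precision is limited by the number of arrays.

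Treated-to-control ratios were computed in Python 3.11.15 with pandas 2.3.3 and plotted with matplotlib 3.10.9. Probe sets with a mean signal at or above the 40th percentile were fitted in R 4.3.3 with limma 3.58.1 (variance trend, Benjamini-Hochberg, adjusted p of 0.05), tested on simulated data first. It has 2 residual degrees of freedom, all from the treated CAMs. An exact permutation test of 3 arrays against 1 cannot go below 0.25, so none was run.

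The platform annotation gave 1 symbol for 27166 chicken probe sets, several for 177 and none for 10350. Those with several were not counted as genes. RefSeq (GRCg7b), used for chromosome class and older symbols only, holds 108 of the 109 genes. Named genes, each at its member probe set of highest mean signal, are the 15 lowest among those under 0.5 in all 3 CAMs, the 10 of highest control signal, up to 4 per list, threshold neighbours (3 on each side) and families of 3 or more symbols. Further genes were added after their values were seen. The members and the 27 lists were chosen with earlier results of these data known. Alternatives covered scaling, an offset, both thresholds, the brightness measure, the probe set rule and each CAM left out.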

Additional observations from a re-analysis of the deposited data

How the results depend on the processing

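Equal array medians put the median log2 ratio of the bright probe sets at 0.28, against 0.03 as deposited. The count of members was then 80 (1.06% of bright probe sets) with 586 higher. A brightness threshold at the 70th percentile gave 365 lower and 456 higher, and at the 90th 55 lower (1.46%) and 101 higher. Brightness taken in the control alone gave 274 lower (3.63%) and 153 higher, so that 35.8% of calls were higher, and in the VEGF-A CAMs alone 71.6% were. Asking for all 3 CAMs gave 40 (0.531%) and 81, and a ratio under 0.4 gave 73 (0.968%) and 114. Leaving out 1 CAM gave 79 to 84 members (1.05% to 1.11%), 103 to 200 higher, and a median mean log2 ratio of -1.45 to -1.41. Lists with a median below 0 numbered 14, and 3 with equal medians. Of 72 genes followed, 5 turned above 0 as the mean of all probe sets of the gene, dim ones included (COL3A1 0.60, CPNE7 1.04, DIO2 0.21, RAB8A 0.0034, TNFSF15 0.15). Another 26 moved in that setting by at least their SD over the CAMs, and 41 stayed within it. Equal medians moved 12 genes by that measure and the offset of 32 moved 5, while quantile normalization kept all 72 within it. SPP1 turned above 0 without VEGF CAM 1 (0.11, in a range of -1.62 to 0.11 with 1 CAM left out). The 72 include genes added after their values were seen, and not all of them are described above. The alternative without Z and W was chosen after seeing the data and left 164 members. The cause of these shifts was not tested beyond the fewer probe sets or CAMs that a setting takes. No paired analysis was possible because the control is 1 pooled array with no replicate number.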
